A study of Bos taurus with 16 samples.

Results

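The Kruppel-like factors (KLFs) are zinc-finger transcription factors, and 10 of their genes (KLF2, KLF3, KLF4, KLF5, KLF6, KLF9, KLF10, KLF11, KLF13 and KLF17) were followed through bovine preimplantation development. A gene was found by its name among the 27393 loci listed, and where a name stood at 2 loci, as for KLF17, the locus with the higher mean was taken. RNA sequencing was done on single matured oocytes and single cattle embryos that had developed in vivo, with 2 samples at each of 8 stages and 16 in all: oocytes at metaphase II (MII), embryos at the 2-cell (2C), 4-cell (4C), 8-cell (8C) and 16-cell (16C) stages, early morulae (EM), compact morulae (CM) and blastocysts (BL). No sample was treated or genetically altered, the animals' age is not given in the labels, and the RNA of each oocyte or embryo was amplified in 2 rounds before sequencing. The study placed embryonic genome activation (EGA), the start of transcription from the embryo's own genome, between 4C and 8C, so MII, 2C and 4C (n = 6) stand before EGA and 8C, 16C, EM, CM and BL (n = 10) after it.

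All KLFs bind GC-rich and CACCC-type elements through a conserved set of zinc fingers near the C-terminus, and they differ in the regions that recruit cofactors. KLF2, KLF4, KLF5, KLF6 and KLF17 mostly act as activators, and the first 3 of these are known from mouse embryonic stem cells, where they help to hold the pluripotent state. KLF3 recruits the corepressor CTBP, while KLF9, KLF10, KLF11 and KLF13 bind the corepressor SIN3A, and KLF10 and KLF11 are known as early targets of TGF-beta signaling.

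The 10 genes fell into 3 kinds of profile. KLF11 was the main family transcript before EGA and was lower after it, KLF17, KLF4, KLF5, KLF10, KLF3 and KLF13 were higher after EGA, and KLF2, KLF6 and KLF9 had few reads at any stage. Levels are given as reads of a locus per 1000000 reads of the sample (CPM). Differences are log2 changes of the deposited normalised values plus 1, with the standard error (SE) of the limma fit. Their p-values are adjusted by Benjamini-Hochberg over all loci tested and called at 0.05. The 1 added shrinks changes at low values. These are means of logs, however, so a change can also exceed what pooled reads give, as for KLF11 and HAS2. With no gene lengths at hand, levels are compared between samples, and between genes only as shares of reads.

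Each sample held 607672 to 3379426 reads, with a median of 1347534, and 3 reads, the number a count of 0 still allows, were worth 0.888 to 4.94 CPM. The reads come from whole oocytes or embryos, so fewer cells of a type and less RNA per cell cannot be told apart, and no source says whether samples of a stage came from different cows, so p-values measure only the spread between these samples. The 2 8C embryos were the least alike pair, with a Pearson correlation of 0.599 over log2 values against 0.767 to 0.886 in the other 7 stages. The summed oocyte markers (GDF9, BMP15, ZP2, ZP3, NLRP5 and H1FOO, with BMP15 listed at 0 throughout, in a stretch of the table where no locus had a read, so that its 0 may not be a measurement) were at 2747 to 10009 CPM before EGA, but at 26.0 CPM in 8C replicate 1 and 1399 CPM in 8C replicate 2. The summed blastocyst markers (CDX2, GATA3, KRT8, KRT18, NANOG and SOX2) reached 1144 and 1083 CPM in the blastocysts and at most 258 CPM elsewhere, although CDX2 had 1 read in all samples together and SOX2 had 1 read in each blastocyst. Of 9 cumulus and granulosa markers, which sum to 564 to 1986 CPM before EGA and 382 to 873 CPM after it, STAR and HAS2 carried most of the reads, and FOXL2 was listed at 0. Both were lower after EGA, with log2 changes of -6.96 for HAS2 (limma adjusted p = 3.3e-08) and -1.30 for STAR (adjusted p = 0.00101). Of the others, CYP19A1 had 184 reads before EGA and 33 after it, FSHR 53 and 0, PTX3 12 and 0 and INHBA 5 and 2, while TNFAIP6 and CYP11A1 had 0 before and 5 and 6 after. The part of such cells in the results was not tested.

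Among the activators, KLF17 (XLOC_050461), the gene of the family best known from the human preimplantation embryo, had the largest change. Its reads numbered 1 and 0 in MII, 1 and 0 in 2C and 1 and 3 in 4C, then 549 and 3724 in 8C. In CPM its level was 0.443 and 0 in MII, 0.666 and 0 in 2C, 0.694 and 1.84 in 4C, 679 and 3582 in 8C, 454 and 146 in 16C, 541 and 549.9 in EM, 550.5 and 566 in CM and 54.0 and 20.5 in BL. Every sample after EGA was above every sample before it, and the blastocysts were below all other samples after EGA.

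KLF17 rose by 9.64 on the log2 scale from 4C to 8C (SE 0.81, limma adjusted p = 4.5e-06), the fourth largest rise of 9670 loci tested. Across EGA it rose by 7.77 (SE 0.78, limma adjusted p = 2.7e-08), with a pooled ratio of 1535 and a 95% counting interval of 705 to 4183. KLF17 had 3724 of its 8004 reads after EGA in 8C replicate 2 and 3 of its 6 before in 4C replicate 2. The gene's pooled ratio thus leans on single samples. Its 8C mean of 2131 ± 2053 CPM (SD, n = 2) placed it 74th among all loci by reads, although the 8C embryos lay far apart, and it stood 226th in one of them and 47th in the other. The rise was called under every alternative tried, with adjusted p from 8.5e-19 to 0.00543. KLF17 then held at 545 ± 6.28 CPM in EM and 558 ± 11.1 CPM in CM and fell by 4.2 from CM to BL (SE 0.81, limma adjusted p = 0.00627). It was not called without CM replicate 2 (log2 change -4.04, adjusted p = 0.0879) or without BL replicate 2 (-3.55, adjusted p = 0.130), fits in which the loci called at this step also went from 427 to 132 and 137. From 8C to 16C its log2 change was -2.75 (limma adjusted p = 0.109), which passed without 8C replicate 1 (adjusted p = 0.022) and in DESeq2 (adjusted p = 0.0474).

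A second locus carried the name KLF17 (XLOC_051134) and held far fewer reads: 2 in one 4C embryo, 6 and 21 in 8C, 1 in one 16C embryo, 5 in one EM, 2 and 4 in CM and none elsewhere. It rose from 4C to 8C as well, by 3.41 on the log2 scale (SE 0.78, limma adjusted p = 0.00395). The sources do not say whether the counting used strand, so reads of loci that overlap on opposite strands cannot be told apart, and which locus holds the KLF17 transcript is uncertain to that extent.

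**Figure D1:**
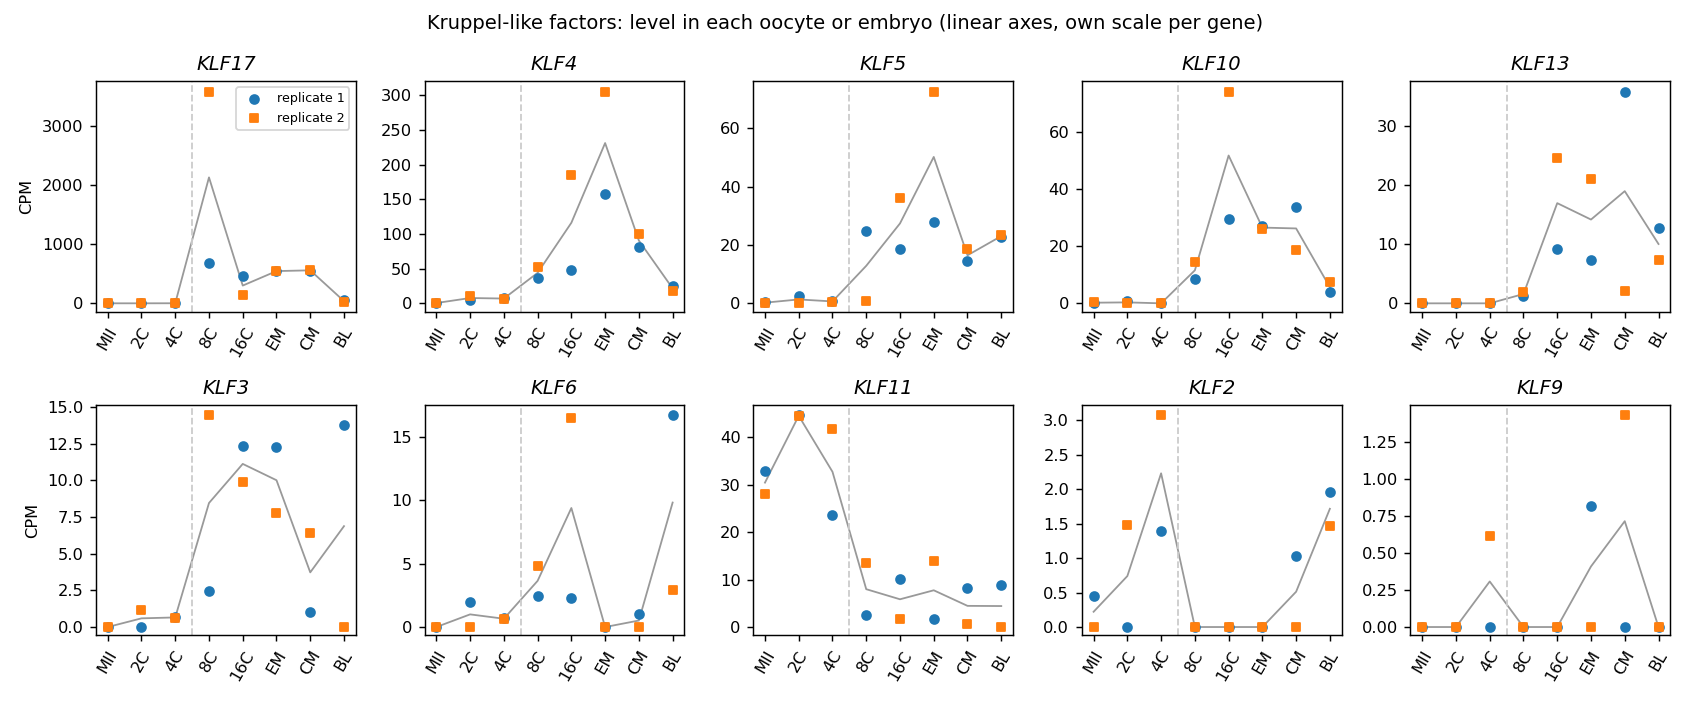
Level of each of the 10 genes in each sample, in CPM (y, linear, with its own scale for each gene) by stage (x), with a point for each sample, a line through stage means and a dashed line at EGA. KLF17 sits between 0 and 1.84 CPM before EGA and between 20.5 and 3582 CPM after it, while KLF11 runs the other way.

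KLF4 (XLOC_067566), one of the factors used to reprogram somatic cells to pluripotency, was already detected before EGA. Its level was 0 and 0.876 CPM in MII, 4.66 and 10.7 CPM in 2C, 7.64 and 6.15 CPM in 4C, 35.9 and 51.9 CPM in 8C and 47.9 and 184 CPM in 16C. It reached 157 and 305 CPM in EM, and was 81.0 and 99.9 CPM in CM and 25.5 and 17.6 CPM in BL. The samples after EGA all lay above those before it. The highest embryo was an early morula at 305 CPM, followed by a 16C embryo at 184 CPM and the other early morula at 157 CPM.

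KLF4 was 100.6 ± 90.8 CPM after EGA (SD, n = 10) against 5.0 ± 4.06 CPM before it (n = 6), a rise of 3.82 (SE 0.59, limma adjusted p = 8.5e-06). Pooled reads gave a ratio of 21.9, with a 95% counting interval of 17.1 to 28.5. Of the 66 reads before EGA, 36 were in 2C replicate 2, and the interval does not cover such differences between samples. From 4C to 8C alone it rose by 2.52 (SE 0.69, limma adjusted p = 0.0111), a call that was lost without 4C replicate 1 (adjusted p = 0.0501) or 4C replicate 2 (adjusted p = 0.0761). The change from MII to 2C was 2.44 (limma adjusted p = 0.0827) and that from CM to BL was -2.21 (adjusted p = 0.0895), neither of which was called. The first passed with total-read scaling (adjusted p = 0.0327), and the second passed with a pseudocount of 5 (adjusted p = 0.0305), in DESeq2 (adjusted p = 0.0321) and with CM and BL fitted alone (adjusted p = 0.0449).

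KLF5 (XLOC_010380), which in the mouse embryo is needed for both trophectoderm and inner cell mass, had 0 to 4 reads per sample before EGA. After it, the level was 24.7 and 0.962 CPM in 8C, 18.5 and 36.2 CPM in 16C, 27.8 and 72.5 CPM in EM, 14.4 and 18.6 CPM in CM and 22.6 and 23.5 CPM in BL. One 8C embryo, replicate 2, stayed within the range seen before EGA, and the other 9 samples lay above that range. The rise after EGA was 3.68 (SE 0.56, limma adjusted p = 7.9e-06) and was 4.01 without the 8C embryos. Its 4C to 8C change of 2.26 was not called (limma adjusted p = 0.115), but it was 4.31 without 8C replicate 2 (adjusted p = 0.0032) and was also called by edgeR and DESeq2. Its 8C to 16C change was likewise called without 8C replicate 1 alone (3.87, limma adjusted p = 0.0248).

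KLF6 (XLOC_012315), a broadly expressed activator, and KLF2 (XLOC_063597), which acts beside KLF4 and KLF5 in mouse stem cells, were close to the limit of detection. KLF6 had 5 reads in all before EGA and 40 after it, of which 17 were in BL replicate 1 and 10 in 16C replicate 2, and none was found in the early morulae. Stage had an effect on it (limma F test, adjusted p = 0.0157, but 0.0702 in DESeq2), while its difference across EGA, 1.25, was not called (limma adjusted p = 0.145, without a filter on low loci). KLF2 had 13 reads before EGA, with at most 5 in a sample, and 4 reads after it. The pooled ratio of after to before was 0.354 for KLF2, with a 95% counting interval of 0.0841 to 1.15, and the log2 change of -0.64 was not called (limma adjusted p = 0.21, without the filter).

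Among the SIN3A-binding repressors, KLF11 (XLOC_007909) was the gene with the most reads in the oocyte. It was at 32.8 and 28.0 CPM in MII, 44.6 and 44.4 CPM in 2C and 23.6 and 41.8 CPM in 4C. After EGA it was at 2.47 and 13.5 CPM in 8C, 10.04 and 1.65 CPM in 16C, 1.63 and 13.8 CPM in EM, 8.20 and 0.714 CPM in CM and 8.84 and 0 CPM in BL. All 10 samples after EGA were below all 6 before it, and within each stage after EGA one sample was far below the other.

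KLF11 averaged 35.9 ± 9.0 CPM before EGA (SD, n = 6), and fell by 3.37 on the log2 scale (SE 0.57, limma adjusted p = 2.8e-05). Pooled reads after EGA stood at 0.189 of those before it, with a 95% counting interval of 0.146 to 0.241. The decline could not be placed at 1 step, since the 4C to 8C change of -2.27 (SE 1.18) was not called (limma adjusted p = 0.143). Oocyte markers moved the same way across EGA, as given above, and their part in the level of KLF11 was not tested. In replicate order these markers summed to 26.0 and 1399 CPM in 8C, 6.18 and 6.58 CPM in 16C and 13.9 and 23.3 CPM in EM. They summed to 45.1 and 14.3 CPM in CM and 2.95 and 8.81 CPM in BL. The sample with the higher sum had more KLF11 in 8C, EM and CM and less in 16C and BL. Without both 8C embryos the fall was 3.56 (log2 change -3.56).

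KLF10 (XLOC_014992), a TGF-beta-inducible repressor, ran in the opposite direction. It had 2 reads in the 6 samples before EGA, then 8.66 and 14.4 CPM in 8C, 29.4 and 74.1 CPM in 16C, 27.0 and 26.0 CPM in EM, 33.8 and 18.6 CPM in CM and 3.93 and 7.34 CPM in BL. The samples before and after EGA did not overlap, and the blastocysts were the lowest after EGA. It rose by 4.08 across EGA (SE 0.51, limma adjusted p = 5.5e-07), with a pooled ratio of 146 and a 95% counting interval of 39.9 to 1208. From 4C to 8C it rose by 3.98 (SE 0.74, limma adjusted p = 0.00104), which was called under every alternative, and the CM to BL change of -2.20 was not called (limma adjusted p = 0.113) except with a pseudocount of 5 (adjusted p = 0.036).

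KLF13 (XLOC_035057), another SIN3A-binding member, had no read in the 6 samples before EGA and reads in all 10 after it. The level was 1.24 and 1.92 CPM in 8C, 9.27 and 24.7 CPM in 16C, 7.35 and 21.0 CPM in EM, 35.9 and 2.14 CPM in CM and 12.8 and 7.34 CPM in BL. In both 8C embryos it rested on 1 and 2 reads, and the 4 highest samples came from 16C, EM, CM and BL. Pooled over samples, KLF13 was at least 51.0-fold higher after EGA, taking 3 reads over the group before EGA as the limit. It passed the filter on low loci in the stage model, where stage had an effect (limma F test, adjusted p = 0.00138), but not in the comparison across EGA, and without the filter its change there was 3.29 (SE 0.57, limma adjusted p = 8.6e-05).

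KLF3 (XLOC_060211), which recruits CTBP, had 6 reads before EGA and 92 after it. After EGA it was at 2.47 and 14.4 CPM in 8C, 12.4 and 9.87 CPM in 16C, 12.3 and 7.75 CPM in EM, 1.03 and 6.42 CPM in CM and 13.8 and 0 CPM in BL. It rose by 2.34 across EGA (SE 0.59, limma adjusted p = 0.00141), but its samples overlapped. A blastocyst had no read, and CM replicate 1, at 1.03 CPM, was below 2C replicate 2, at 1.18 CPM. The effect of stage was not called (limma F test, adjusted p = 0.0584). That effect passed without 8C replicate 1 (adjusted p = 0.0477), BL replicate 1 (0.0169) or BL replicate 2 (0.0172), and with total-read scaling (0.0411). KLF9 (XLOC_067331), a further SIN3A-binding member, had 1 read before EGA and 3 after it and cannot be compared at this depth.

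Across EGA, 6 of the 10 genes passed the filter on low loci and were tested, and all 6 were called, 5 higher and 1 lower. Of the 6910 loci tested, 36.9% were called higher and 29.9% lower. KLF10, KLF17, KLF3 and KLF5 had 2 to 7 reads each before EGA and passed the filter through the samples after it. A gene that passed the filter only through its reads after EGA had to differ, so the count over those 6 is not evidence on the family. For the same reason the p-values of these genes in that fit are no separate support for their rise. Without the filter all 10 could be tested, 6 were higher (KLF17, KLF10, KLF4, KLF5, KLF13 and KLF3), 1 was lower (KLF11) and 3 were not called, against 18.4% of 18318 loci higher and 20.2% lower. The median log2 change of the 10 genes was 2.82, against 0.09 over those 18318 loci. Of those loci 6910 passed the filter, and of the 10 genes 6 did. The shares over the 18318 loci, including those of overlap below, are therefore not over loci of like level. The samples before and after EGA did not overlap in CPM for 4 genes that were higher (KLF17, KLF4, KLF10 and KLF13), where 7.59% of the 18318 loci had all samples above, and for 1 gene that was lower (KLF11), where 5.07% had all samples below. KLF13 belonged to the 100 loci, 0.546%, with no read before EGA and reads in every sample after it. Every call across EGA was kept under the alternatives in which the gene was tested, and without both 8C embryos the changes were 7.15 for KLF17, 3.93 for KLF4 and 4.19 for KLF10.

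**Figure D2:**
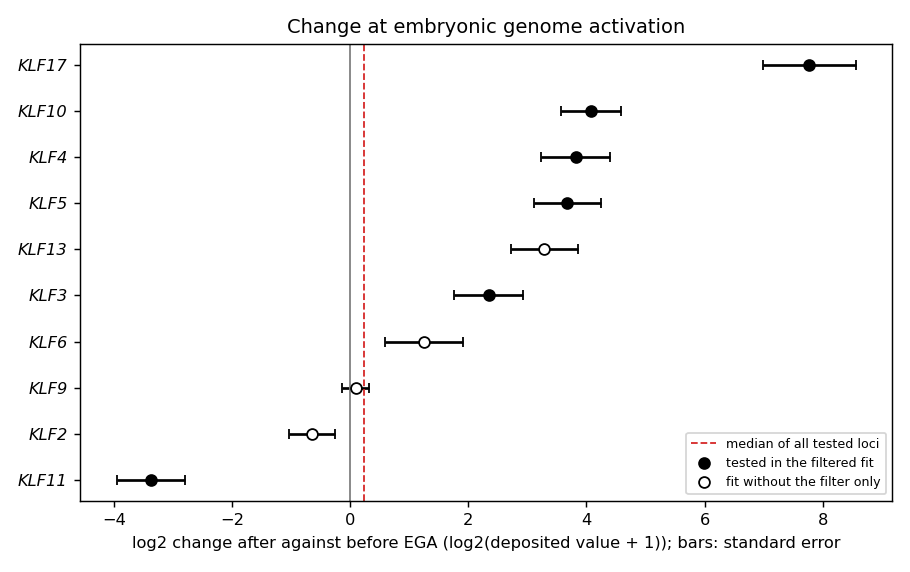
Log2 change across EGA, after minus before, for each of the 10 genes (x, log2 of the deposited value plus 1), with bars for the SE of the limma fit. Open points come from the fit without the filter, and the dashed line is the median of all tested loci. KLF17 lies furthest to the right at 7.77 (SE 0.78) and KLF11 is the one called to the left, at -3.37 (SE 0.57).

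Stage by stage, 7 of the 8 genes tested had an effect of stage, where 66.7% of the 9670 loci did. KLF13, KLF10, KLF6, KLF17, KLF3 and KLF5 had 0 to 7 reads each in all samples before EGA and passed the filter through later stages. Neither that count nor the count of rises at 4C to 8C is therefore evidence on the family. Members were called mostly at the step from 4C to 8C, where 3 of the 8 were higher (KLF17, KLF10 and KLF4) and none lower, against 17.7% of loci higher and 19.1% lower. That split, 1711 higher and 1849 lower, was 1656 and 1083 in edgeR and 1630 and 1154 in DESeq2. Without the filter KLF2, on 2 and 5 reads in 4C and 0 in 8C, was also called, as lower (log2 change -1.92, SE 0.59, limma adjusted p = 0.0364). In that fit 1945 of 18318 loci were lower at this step. The step from CM to BL had 1 member called lower (KLF17), against 1.5% of loci. No member was called by limma from MII to 2C, 2C to 4C, 8C to 16C, 16C to EM or EM to CM, where 1.42%, 0.0%, 0.858%, 0.103% and 0.0% of loci were. The 2 steps with 0 loci called had 441 and 485 loci at an unadjusted p under 0.05, 0 in edgeR at both, and 1 and 5 in DESeq2. Within the stages after EGA, the mean of EM, CM and BL minus that of 8C and 16C was -1.84 for KLF17 (limma adjusted p = 0.0951), and no member was called, against 0.993% of loci. The KLF17 difference passed without 8C replicate 1 (adjusted p = 0.0285) and in DESeq2 (adjusted p = 0.00705).

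**Figure D3:**
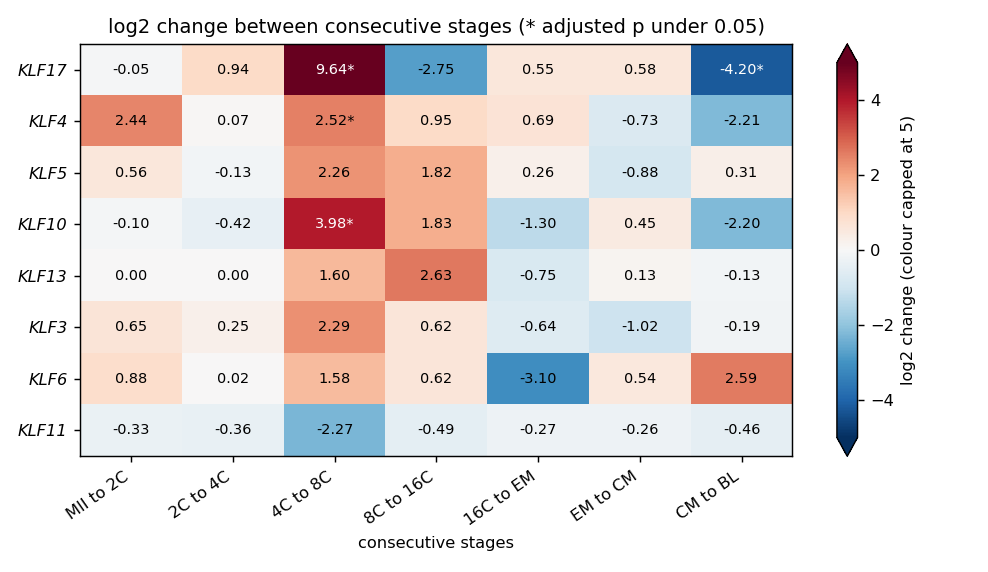
Log2 change at each of the 7 steps between consecutive stages (x) for the 8 genes tested (y), as color and number, with an asterisk at those called by limma at an adjusted p of 0.05. The called changes are those of KLF17, KLF10 and KLF4 from 4C to 8C (9.64, 3.98 and 2.52) and that of KLF17 from CM to BL (-4.2).

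The make-up of the family's reads changed hands across EGA. KLF11 held 66.7% to 96.1% of the reads of the 10 genes in the samples before EGA and at most 5.52% in those after it. KLF17 held 89.7% and 97.2% in 8C, 77.8% and 29.7% in 16C, 69.8% and 55.2% in EM, 75.7% and 79.3% in CM and 33.7% and 25.5% in BL. It had the largest share in 8 of the 10 samples after EGA, the exceptions being 16C replicate 2, where KLF4 had 37.3%, and BL replicate 2, where KLF5 had 29.1%. These are shares of reads, which longer transcripts gain from.

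Summed over the 10 genes, the family had 29.4 to 57.7 CPM before EGA (median 45.3) and 80.7 to 3684 CPM after it (median 720). Without KLF17 the sum still ranged from 60.2 to 446 CPM after EGA, with a median of 139, above the highest sample before it. In blastocysts KLF17, KLF4 and KLF5 were at 37.3 ± 23.7, 21.6 ± 5.60 and 23.0 ± 0.632 CPM (SD, n = 2).

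**Figure D4:**
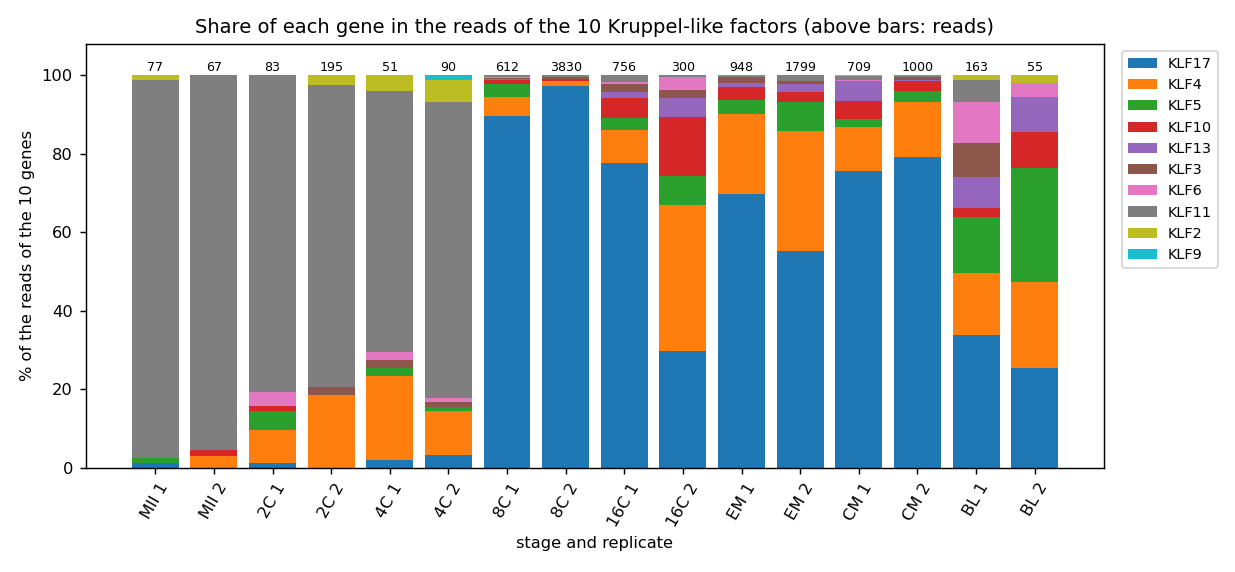
Share of the reads of the 10 genes held by each gene (y, percent) in each sample (x, by stage), with the reads of the 10 genes above each bar. KLF11 fills 66.7% to 96.1% before EGA, and KLF17 holds 25.5% to 97.2% after it, most in 8C.

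The genes whose profiles were closest to a member over the 16 samples, by Pearson's correlation on the log2 scale among 8073 named loci, reached 0.93 to 0.98, and 0.77 to 0.91 within the 10 samples after EGA. For KLF17 these were XPO5 (0.98) and UCK2 (0.98), for KLF4 PTCD2 (0.95) and SUCLA2 (0.94), and for KLF5 SNX18 (0.97) and FAM113B (0.96). For KLF10 they were USPL1 (0.97) and SMCHD1 (0.96), for KLF13 SPTSSA (0.95) and FKBP2 (0.94), and for KLF11 CDK2AP2 (0.93) and EPB41L4B (0.93). All points share the libraries and the step at EGA. Among themselves, KLF4, KLF5, KLF10, KLF13 and KLF17 had correlations of 0.70 to 0.89 over the 16 samples, but of -0.52 to 0.73 within the 10 after EGA, where KLF4 and KLF10 were the closest pair (0.73) and KLF5 and KLF17 were at -0.52.

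Of the other 16 genes of the KLF and SP families, 5 were listed at 0 in all samples (KLF8, KLF14, KLF16, SP6 and SP9), and 5 had 1 to 20 reads in all. KLF8, like BMP15, is one of 2578 loci with neighboring identifiers and no read in any sample, so its 0 may not be a measurement. Of the 3 tested across EGA, 1 was higher and 1 lower, near the 36.9% and 29.9% of all loci, with a median of -0.93 against 0.23 over all loci. SP1, a ubiquitous activator, went from 12.5 ± 7.67 CPM (SD, n = 6) to 38.9 ± 22.4 CPM (n = 10), a change of 1.09 (SE 0.43, limma adjusted p = 0.0311). SP2 changed by -1.46 (SE 0.58, limma adjusted p = 0.0321), which was -1.0 and not called when samples were scaled by their total reads (adjusted p = 0.157). Neither call held without MII replicate 1, MII replicate 2 or 2C replicate 1, nor did that of SP1 without 8C replicate 2, EM replicate 1 or BL replicate 2, and adjusted p-values ranged up to 0.0952 for SP1 and 0.157 for SP2 over the alternatives. KLF7 and KLF12 had most of their reads before EGA, 76 of 103 and 53 of 61, and were not tested there.

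Of 13 cofactors and ubiquitin ligases that act with or on KLFs, 10 were found by name and 8 were tested across EGA, with 4 higher and 2 lower, against 36.9% and 29.9% of all loci, and a median of 0.57 against 0.23. KAT2B had 11 reads before EGA and passed the filter through the samples after it, so the count of higher genes is no evidence on the list. KAT2B, an acetyltransferase, went from 1.08 ± 1.30 CPM to 45.6 ± 39.5 CPM, a rise of 4.25 (SE 0.46, limma adjusted p = 6.8e-08). SAP18, a SIN3A-complex subunit, rose by 2.64 (SE 0.46, limma adjusted p = 4.0e-05). CTBP1, the partner of KLF3, was at 177 ± 68.1 CPM in MII, 27.5 ± 16.7 CPM in 2C, 5.89 ± 0.509 CPM in 4C and 80.2 ± 4.93 CPM in 8C (SD, n = 2), and reached 659 ± 47.5 CPM in BL. It fell from MII to 2C (limma log2 change -3.63, SE 0.60, adjusted p = 0.0148) and rose from 4C to 8C by 3.60 (SE 0.60, limma adjusted p = 0.000493). Its difference across EGA, 2.57 (SE 0.77, limma adjusted p = 0.00571), averages over that fall and was not called by edgeR (adjusted p = 0.171) or DESeq2 (adjusted p = 0.105). FBXW7, the substrate-recognition subunit of a ubiquitin ligase that targets KLF5, went from 122 ± 27.9 CPM to 42.8 ± 15.3 CPM and fell by 2.02 (limma log2 change -2.02, SE 0.28, adjusted p = 2.2e-06). SIN3A itself was at 595 ± 324 CPM before EGA and 430.3 ± 245 CPM after it, a change that was not called (limma log2 change -1.18, SE 0.55, adjusted p = 0.0655).

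Of 17 genes upstream of KLFs, in the LIF, ERK5, TGF-beta and steroid receptor pathways, 6 were tested across EGA, with 1 higher and 3 lower, against 36.9% and 29.9% of all loci, and a median of -0.87 against 0.23. STAT3, through which LIF induces KLF4 in mouse stem cells, was at 284 ± 114 CPM before EGA and 33.8 ± 17.9 CPM after it, a log2 change of -3.57 (SE 0.43, limma adjusted p = 3.1e-07). JAK1, which phosphorylates STAT3, changed by -1.72 (SE 0.46, limma adjusted p = 0.0024). SMAD2 and SMAD4, which carry TGF-beta signals, moved in opposite directions, by -1.38 (SE 0.35, limma adjusted p = 0.00162) and 1.81 (SE 0.55, adjusted p = 0.00659). SMAD2 was not called when samples were scaled by their total reads (adjusted p = 0.0608).

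Of 10 lineage factors that work beside KLFs in pluripotent cells or trophectoderm, 6 were tested across EGA and 4 were higher, against 36.9% of all loci, with a median of 3.78 against 0.23. NANOG and TBX3 had 0 and 9 reads before EGA and passed the filter through the samples after it, so the count is no evidence on the list. PRDM14, a regulator of naive pluripotency, went from 5.20 ± 8.55 CPM to 785 ± 288 CPM, a rise of 7.62 (SE 0.54, limma adjusted p = 2.1e-10). POU5F1, the core pluripotency factor also called OCT4, went from 228 ± 58.2 CPM to 3681 ± 1047 CPM, a rise of 3.53 (SE 0.36, limma adjusted p = 3.2e-08). NANOG had no read before EGA and was at 54.0 and 73.4 CPM in the blastocysts, where KLF17 was lowest after EGA, but also at 71.2 CPM in 8C replicate 2, where KLF17 was highest. TBX3 rose by 5.88 (SE 0.70, limma adjusted p = 2.7e-07). TFCP2L1, a partner of KLF4 in mouse stem cells, was listed at 0 throughout.

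Some KLFs, such as KLF4, KLF6 and KLF10, are quickly induced by growth and stress signals, so 10 immediate-early genes were read beside them. Of these, 6 were tested across EGA and called higher, with 36.9% of all loci called so, but IER2, FOS and DUSP1 had 0, 1 and 2 reads before EGA and passed the filter through the samples after it, so the count is no evidence on the list. EGR1, with 101 reads before EGA and 6130 after it, rose by 5.51 (SE 0.66, limma adjusted p = 2.8e-07), and the changes were 4.09 for DUSP1, 3.52 for IER2 and 3.18 for FOS. JUN, which was not tested there, had 52 reads before EGA and 20 after it, a pooled ratio of 0.442. Summed, the 10 genes were at 3.07 to 26.3 CPM before EGA and 131 to 1244 CPM after it. The sum was highest in the 16C embryos, at 1244 and 1160 CPM, and lowest after EGA in BL, at 131 and 248 CPM. EGR1 carried most of this sum, at 1099 ± 127 CPM in 16C and 119 ± 82.5 CPM in BL (SD, n = 2), while IER2 went from 5.66 ± 3.63 to 26.7 ± 14.1 CPM and JUNB from 5.71 ± 5.89 to 8.08 ± 3.10 CPM between the same stages. Of the quickly induced KLFs, KLF10 had its highest mean in 16C and KLF4 in EM, and both were lowest after EGA in BL. KLF6 was at 2.32 and 16.5 CPM in 16C and 16.7 and 2.94 CPM in BL, which overlapped. The part of such signals in the levels of these KLFs was not tested.

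**Figure D5:**
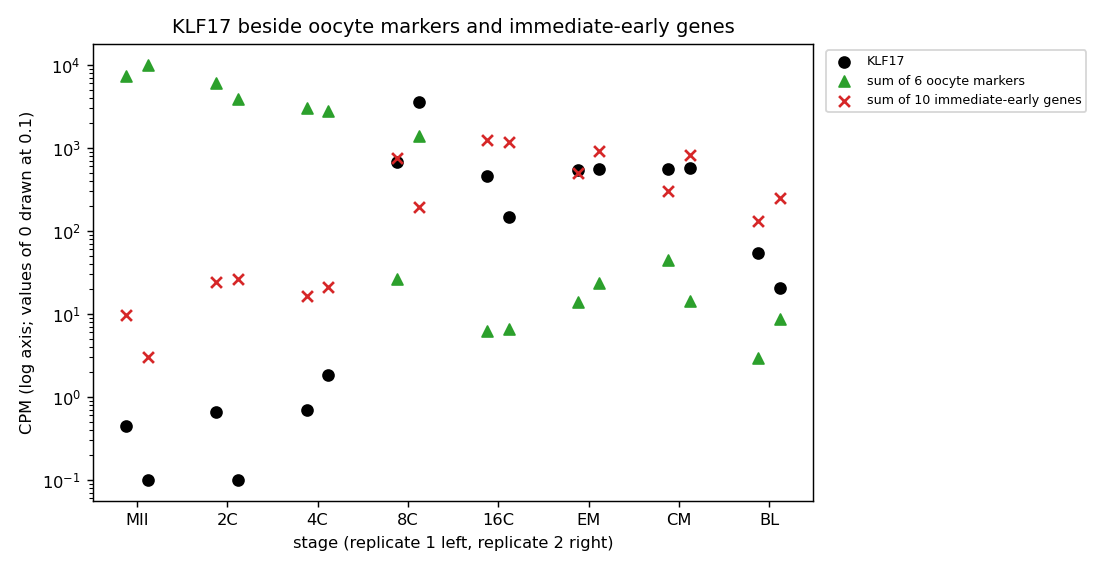
KLF17 in each sample beside the summed oocyte markers and the summed immediate-early genes, in CPM on a log axis (y, values of 0 drawn at 0.1) by stage (x). In the blastocysts KLF17 is at 54.0 and 20.5 CPM while the immediate-early genes are at 131 and 248 CPM, and in 8C replicate 2 KLF17 is at 3582 CPM with oocyte markers at 1399 CPM.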

How the data were processed

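Signal values were deposited for 27393 loci in 16 samples: the authors counted reads on loci and divided each sample's counts by a size factor. The submitters' processing notes name cutadapt, FastQC, TopHat, Cufflinks and HTSeq, while the genome build and the strand setting are not given in the sources used here. Amplification from single embryos leaves molecules uncounted, so intervals and floors cover counting error only. All non-zero values (100.0% within a tolerance of 0.01) were whole multiples of what 1 read is worth, which gave the reads back. Levels are CPM of those reads, as mean ± SD.

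log2(deposited value + 1) was fitted with limma 3.58.1 (R 4.3.3, trended empirical Bayes) after edgeR's filterByExpr on the reads, once over 8 stages and once across EGA, with p-values adjusted over all loci tested. The scripts were tested on simulated counts first. Counting intervals of pooled ratios are exact 95% intervals. Alternatives were TMM, total-read scaling, pseudocounts of 0.5 and 5, no filter, edgeR 4.0.16, DESeq2 1.42.0, a replicate block, summed loci of a name, stages fitted in pairs and leaving out each sample. The fit without both 8C embryos was chosen after seeing the data.

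The members and gene lists were chosen with earlier results of these data known. Named from the other lists were the up to 4 called genes with the largest change across EGA, and for each member with at least 100 reads the 2 named loci most correlated with it, while SIN3A, KLF7, KLF8, KLF12, JUN and TFCP2L1 were named after their values were seen. Markers were read for cumulus and granulosa, oocyte, trophectoderm and inner cell mass. Sequences and gene lengths were not used here.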

Additional observations from a re-analysis of the deposited data

Results flagged for a closer look

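In 4 of 13 groups of samples examined, the 10 after EGA or the 6 before it for each gene, 1 sample lay far from the others relative to the group's range. These groups span 5 and 3 stages, so a gene that peaks at 1 stage can meet the criterion by its profile, and the rate of about 1 in 20 that chance gives among like samples does not apply. KLF17 was at 3582 CPM in 8C replicate 2, and the next sample after EGA was at 679 CPM. KLF5 was at 2.66 CPM in 2C replicate 1, on 4 reads, with the next sample before EGA at 0.694 CPM. KLF5 reached 72.5 CPM in EM replicate 2, with the next at 36.2 CPM, and KLF10 reached 74.1 CPM in 16C replicate 2, with the next at 33.8 CPM. Sample 8C replicate 2 was also the one with oocyte markers at 1399 CPM.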

How the results depend on the processing

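None of the log2 changes of named genes that were recomputed changed sign, and all calls of members across EGA were kept wherever the gene was tested. With 2 embryos a stage and few reads on most members, changes within the stages after EGA were the least certain. Counts of loci called are given first with the deposited scale. From MII to 2C (137 loci) they were 551 with total-read scaling, which also called 1 member, 44 in edgeR, 360 in DESeq2 and 0 with the stages fitted as a pair. From 2C to 4C (0 loci) they were 14 without the filter and 1 in DESeq2. From 4C to 8C (3560) a pair fit gave 1952. From 8C to 16C (83) they were 55 with total-read scaling, 0 in edgeR, 142 in DESeq2, which called 1 member, and 0 in a pair fit. From 16C to EM (10) they were 20 with a pseudocount of 5, 42 without the filter, 0 in edgeR, 114 in DESeq2 and 91 in a pair fit. From EM to CM (0) they were 3 with total-read scaling, 3 without the filter and 5 in DESeq2. From CM to BL (427 loci, 1 member) they were 154 in edgeR, and members were 3 with a pseudocount of 5, 2 in DESeq2 and 2 in a pair fit. Later against earlier stages after EGA (96) gave 196 with a pseudocount of 5 and 242 in DESeq2, which called 1 member. Across EGA (4619) the count was 7075 without the filter, and total-read scaling moved the split from 2550 higher and 2069 lower to 2871 and 1593, with the median of all loci going from 0.23 to 0.67. Without the filter that split was 3372 and 3703. The split of higher and lower loci also turned over from CM to BL, from 282 and 145 to 72 and 82 in edgeR and 176 and 180 in DESeq2. For later against earlier stages it went from 38 and 58 to 77 and 42 with total-read scaling, but to 2 and 72 in edgeR and 36 and 206 in DESeq2. The cause of these differences was not tested, apart from the larger number of loci without the filter.

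Leaving out 1 sample at a time gave 5783 to 7375 loci and 7 to 8 members for the effect of stage, 18 to 302 loci from MII to 2C, 0 to 12 from 2C to 4C, 1935 to 3844 from 4C to 8C with 2 to 4 members, and 7 to 810 from 8C to 16C with 0 to 2 members. It gave 1 to 58 loci from 16C to EM, 0 to 3 from EM to CM, 132 to 670 from CM to BL with 0 to 1 member, 0 to 438 for later against earlier stages with 0 to 1 member, and 4280 to 4636 across EGA with 4 to 6 members higher. The lowest counts came without MII replicate 2 from MII to 2C (18, with 24 without 2C replicate 2), without 4C replicate 1 from 8C to 16C (7), without EM replicate 1 from 16C to EM (1) and without 16C replicate 1 for later against earlier stages (0). Without 8C replicate 1 the counts were 810 from 8C to 16C, 58 from 16C to EM and 438 for later against earlier stages, and without 8C replicate 2 they were 302 from MII to 2C and 670 from CM to BL. Without CM replicate 2 or BL replicate 2 the count from CM to BL was 132 or 137, and without 4C replicate 1 or 2 that from 4C to 8C was 2003 or 1935. A lone sample of a stage was then assumed to vary like the other stages.

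The replicate numbers did not pair the samples: deviations of replicates 1 of different stages correlated at -0.257 to 0.134, and 1 of 28 pairs was over 0.1. With a replicate block 44 loci were called from 8C to 16C, 5 from 16C to EM and 4579 across EGA, and KLF17 was called from 4C to 8C in both fits.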

Other observations

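The 16C embryos differed in 2 keratins and in several KLFs. KRT8 and KRT18, keratins of the trophectoderm, were at 3.86 and 11.6 CPM in 16C replicate 1 and at 102 and 114 CPM in 16C replicate 2, the highest values outside the blastocysts. Of the other trophectoderm markers listed, GATA3 was at 19.3 and 41.1 CPM, on 25 reads in each embryo, and CDX2 had no read in either. In the same order KLF4 was at 47.9 and 184 CPM, KLF10 at 29.4 and 74.1 CPM, KLF6 at 2.32 and 16.5 CPM, and KLF17 at 454 and 146 CPM, while KLF3 was alike at 12.4 and 9.87 CPM. With 1 embryo on each side these are values with no test, and the pair and the genes were chosen after their values were seen.

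In 8C replicate 1 and replicate 2, POU5F1 was at 5926 and 2727 CPM, NANOG at 4.95 and 71.2 CPM, TBX3 at 53.2 and 2.89 CPM, PRDM14 at 989 and 672 CPM, SALL4 at 3036 and 2365 CPM and SOX2 at 1.24 and 6.73 CPM, and ESRRB had no read in either. These are values with no test, and the pair was chosen after its values were seen. In the same order KLF17 was at 679 and 3582 CPM and KLF5 at 24.7 and 0.962 CPM.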
